A study of Bos taurus with 7 samples.

Results

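The AP-1 transcription factors described here are 10 genes, FOS, FOSB, FOSL1, FOSL2, JUN, JUNB, JUND, ATF3, BATF and MAFF, chosen by symbol from 19539 entries of the authors' deposited table. Each symbol stood on a single entry. RNA sequencing was carried out on whole luteal tissue of Bos taurus from 4 libraries on day 6 and 3 libraries on day 4 of the estrous cycle. By its title the study concerns how the gland becomes able to regress, and apoptotic and immune changes at that time. All cows, on day 6 as on day 4, had their cycles synchronised alike: a progesterone-releasing insert was in place for 7 days, PGF2α (prostaglandin F2α) was injected at 25 mg and gonadotropin-releasing hormone at 86 mcg, with no other treatment. The sources used here give neither breed nor age. Per the labels, glands of day 4 were taken after slaughter and glands of later than day 6 through the vaginal wall (colpotomy). For day 6 itself no route is stated, so day and collection route cannot be told apart. Whether the libraries came from separate cows is not stated, so p-values measure the spread between these libraries.

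AP-1 is a family of dimeric transcription factors held together by a leucine zipper. JUN proteins pair with one another or with FOS proteins, whereas FOS proteins need a JUN partner to bind DNA. FOS, FOSB, JUN, JUNB and ATF3 are classical immediate early genes, switched on within minutes by growth factors, stress or injury, and their messenger RNAs are short-lived. In luteal cells PGF2α, the uterine hormone that ends luteal function, is known to induce FOS and JUN.

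Levels are given as mean TPM, which express a gene's share of all transcripts with its length taken into account, so that genes can be compared. For each gene the authors' deposited table gives a mean per day and the result of a Wald test, so neither the spread between libraries of a level nor the number of libraries behind a direction is known, and the sequencing depth is unknown too. A log2 fold change is day 6 over day 4, obtained by multiplying the deposited Wald statistic by its standard error, and is printed ± that standard error. Calls are adjusted p-values under 0.05 as the authors' deposited table gives them. Of the 9 members with a usable p-value 5 were called lower and 1 higher on day 6. Across all 19485 tested entries 10.4% were called lower and 4.12% higher, 14.5% in all (2020 and 803 entries). This split moved with scaling: 3829 entries were lower and 299 higher with fold changes set to the TPM means, and 1595 lower and 1848 higher with mitochondrially encoded genes left out of TPM. The median log2 fold change of these 9 members was -0.99, beside -0.04 over all tested entries. In bulk tissue, fewer cells of a type and less RNA per cell cannot be told apart.

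**Figure D1:**
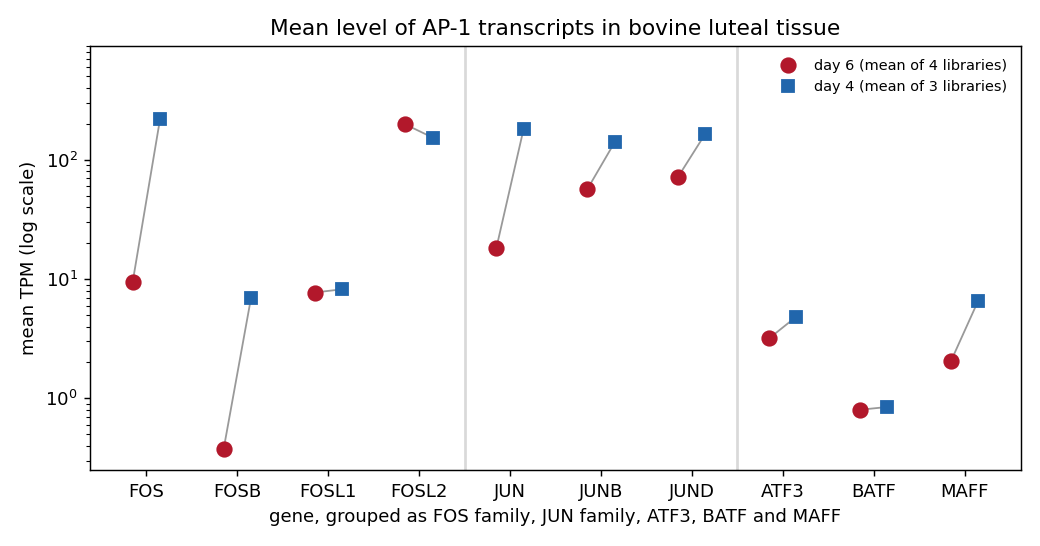
Mean TPM (log axis) of the 10 AP-1 genes, day 6 as circles left of day 4 as squares, without error bars because only means per day were at hand. FOS stood at 9.54 TPM on day 6 and 218 TPM on day 4, while FOSL2 stood at 198 TPM on day 6 and 153 TPM on day 4.

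The FOS family split. FOS, the founding member and the most abundant of the 10 genes on day 4, had a mean of 9.54 TPM on day 6, against 218 TPM on day 4, in the authors' deposited table. It was called lower, 20.02-fold by the Wald estimate (log2 -4.32 ± 0.58, 95% Wald interval -5.47 to -3.18, adjusted p = 1.16e-10 by the Wald test of the authors' deposited table). Its p-value ranked 22 among the 19485 tested entries. On day 6 FOS stood above 60.4% of all entries by level, and on day 4 above 97.4%.

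FOSB, the closest relative of FOS, had a mean of 0.377 TPM on day 6 and 6.88 TPM on day 4 in the authors' deposited table. Its Wald estimate of log2 -3.99 ± 0.83 was close in size to that of FOS. However, FOSB is among 54 entries whose deposited p-value is 1 and does not follow from the deposited statistic (for FOSB it is -4.80), for a reason that no source used here states. FOSB was therefore left out of every count of calls.

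FOSL2, which like FOSL1 lacks the strong transactivation domain of FOS, rose on day 6. Its means in the authors' deposited table were 198 TPM on day 6 and 153 TPM on day 4 (log2 0.59 ± 0.16, 95% Wald interval 0.28 to 0.89, adjusted p = 0.00328 by the Wald test). FOSL2 was the only member called higher, a 1.5-fold change by the Wald estimate. By level it stood above 97.3% of all entries on day 6 and above 96.4% on day 4. The median log2 fold change of entries averaging at least 50 TPM was 0.24, and of these 2085 entries 7.1% were called higher and 12.3% lower. The call of FOSL2 was lost when every fold change was lowered by 0.21 to match the scale of the TPM means, called the TPM scale here (log2 0.37, adjusted p = 0.0708 by the Wald test).

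FOSL1, in contrast, had close means, 7.72 TPM on day 6 and 8.21 TPM on day 4 in the authors' deposited table. It was not called there (log2 0.08 ± 0.77, adjusted p = 0.954 by the Wald test of the authors' deposited table), and its 95% Wald interval of -1.43 to 1.59 spans changes of either sign. Day 6 therefore had FOSL2 at 20.7 times the mean TPM of FOS, whereas on day 4 this ratio was 0.702.

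All 3 JUN genes were lower on day 6. JUN, the main partner of FOS, had a mean of 18.3 TPM on day 6 and 182 TPM on day 4 in the authors' deposited table. It fell 8.59-fold by the Wald estimate (log2 -3.10 ± 0.47, 95% Wald interval -4.02 to -2.19, adjusted p = 1.11e-08 by the Wald test of the authors' deposited table). JUN stood above 74.3% of all entries on day 6 and above 97.0% on day 4.

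JUNB, a weaker activator that can oppose JUN, had a mean of 56.6 TPM on day 6 and 139.8 TPM on day 4 in the authors' deposited table (log2 -1.12 ± 0.32, adjusted p = 0.00768 by the Wald test). JUND, which many resting cells make without a stimulus, had a mean of 72.2 TPM on day 6 and 166 TPM on day 4 there (log2 -0.99 ± 0.35, adjusted p = 0.033 by the Wald test in the authors' deposited table). The 95% Wald intervals of JUNB (-1.75 to -0.49) and JUND (-1.67 to -0.32) covered each other's estimate and lay above the whole interval of JUN. No test of a difference between genes was possible without values per library. JUND had the largest adjusted p of the 6 called members. Its call was lost when fold changes were set to TPM computed with mitochondrially encoded genes left out (log2 -0.87, adjusted p = 0.0605 by the Wald test).

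**Figure D2:**
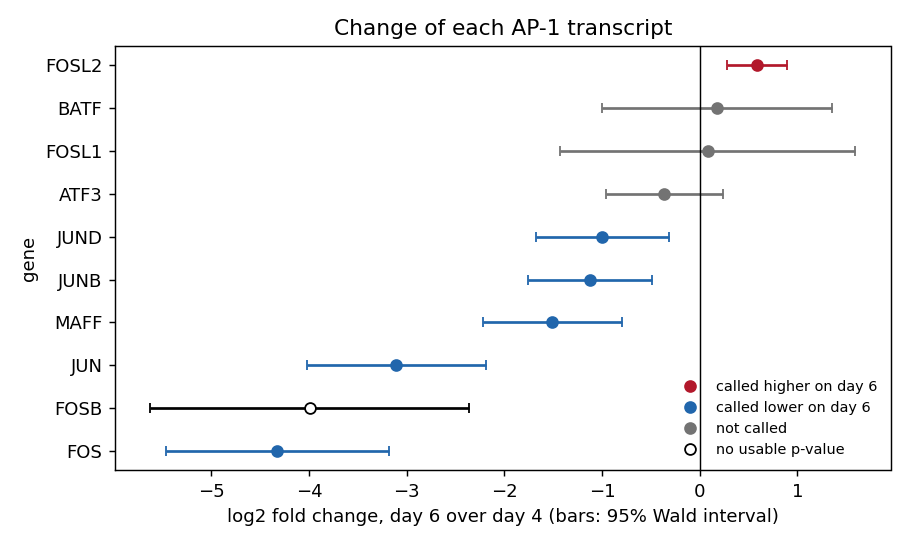
Log2 fold change (day 6 over day 4) of each AP-1 gene with its 95% Wald interval, coloured by call, the open symbol being FOSB without a usable p-value. FOS, FOSB and JUN lie at -3.10 or below, MAFF, JUNB and JUND between -1.51 and -0.99, and FOSL2 alone has its interval above 0.

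The remaining 3 members were present at low levels. MAFF, a small MAF protein without a transactivation domain that pairs with factors such as NFE2L2, had a mean of 2.05 TPM on day 6 and 6.59 TPM on day 4 in the authors' deposited table. It fell 2.85-fold by the Wald estimate (log2 -1.51 ± 0.36, adjusted p = 0.000913 by the Wald test of the authors' deposited table). ATF3, a stress-induced factor that represses as a homodimer, was not called. Its means were 3.18 TPM on day 6 and 4.85 TPM on day 4 in the authors' deposited table (log2 -0.36 ± 0.31, 95% Wald interval -0.96 to 0.24, adjusted p = 0.455 by the Wald test). BATF, a JUN partner best known from lymphocytes, averaged 0.803 TPM on day 6 and 0.847 TPM on day 4 in the authors' deposited table. It was not called (log2 0.18 ± 0.60, adjusted p = 0.886 by the Wald test of the authors' deposited table). The Wald estimates of BATF and FOSL1 are positive although both means were slightly lower on day 6, and over 10599 entries averaging at least 5 TPM the median gap between Wald estimate and log2 TPM ratio was 0.21. Both intervals span 0.

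The summed mean TPM of the 10 genes was 368 on day 6 and 887 on day 4 in the authors' deposited table, a ratio of 0.415. Mitochondrially encoded genes held 29.2% of TPM on day 6 and 10.3% on day 4, which scales sums of other genes down more on day 6. Shares within the summed TPM of the 10 genes do not depend on this. FOS and JUN together held 7.55% of the summed TPM of the 10 genes on day 6 and 45.1% on day 4. FOSL2 and JUND together held 73.2% on day 6 and 36.0% on day 4, with FOSL2 alone at 53.7% on day 6 and 17.3% on day 4. Without FOSL2 the sum was 171 TPM on day 6 and 734 TPM on day 4. The order of levels on day 6 was FOSL2, JUND, JUNB, JUN, FOS, FOSL1, ATF3, MAFF, BATF and FOSB. On day 4 it was FOS, JUN, JUND, FOSL2, JUNB, FOSL1, FOSB, MAFF, ATF3 and BATF. The first 5 places were taken by the same 5 genes on both days. On day 4 these 5 lay between 139.8 and 218 TPM, and on day 6 between 9.54 and 198 TPM. Which neighbours in these orders differ beyond the spread of their libraries could not be determined.

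**Figure D3:**
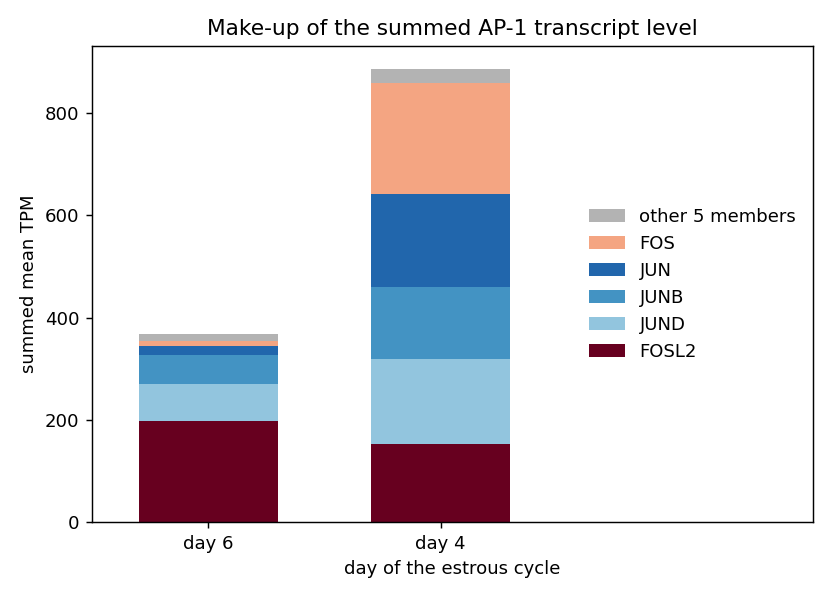
Stacked mean TPM of the AP-1 genes on day 6 (left) and day 4 (right), the 5 most abundant genes drawn singly and the other 5 together. The whole bar reaches 368 TPM on day 6 and 887 TPM on day 4, and FOSL2 makes up 53.7% of it on day 6.

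Among 19 other leucine zipper factors that pair with AP-1 proteins or share their sites, 5 were called lower and 1 higher, with a median log2 fold change of -0.53. The share called was 31.6%, beside 14.5% of all tested entries. On the TPM scale 8 were lower, and with mitochondrially encoded genes left out of TPM 3 were lower and 2 higher. Of all 19485 tested entries, 3829 were lower on the TPM scale. With mitochondrially encoded genes left out, 1595 of them were lower and 1848 higher. DDIT3, a stress factor of the C/EBP family also known as CHOP, fell to 19.02 TPM on day 6, against 36.8 TPM on day 4 (log2 -0.85 ± 0.22, adjusted p = 0.00282 by the Wald test in the authors' deposited table). JDP2, which represses JUN targets, fell as well, with 8.21 TPM on day 6 and 18.6 TPM on day 4 in the authors' deposited table (log2 -0.99 ± 0.29, adjusted p = 0.00797 by the Wald test). The one factor called higher was NFE2L1, a regulator of proteasome genes and a partner of small MAF proteins, with 189 TPM on day 6 and 116 TPM on day 4 in the authors' deposited table (log2 0.88 ± 0.22, adjusted p = 0.00211 by the Wald test).

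The MAP kinase cascades lead by successive phosphorylation to JUN, FOS and the factors on their promoters. Of 23 genes of these cascades 4 were called lower and 2 higher, with a median log2 fold change of 0.07. The share called was 26.1%, beside 14.5% of all tested entries. On the TPM scale 7 of the 23 were lower, beside 3829 of all 19485 tested entries. MAP3K5, a stress-activated kinase upstream of JNK and p38 also known as ASK1, had the smallest adjusted p, with 0.623 TPM on day 6 and 4.34 TPM on day 4 in the authors' deposited table (log2 -2.59 ± 0.58, adjusted p = 0.000329 by the Wald test). MAPK11, a p38 kinase, fell to 0.611 TPM on day 6, against 2.20 TPM on day 4, and MAPK7, also known as ERK5, to 8.57 TPM on day 6, against 21.6 TPM on day 4, in the authors' deposited table. Both calls of higher genes were lost on the TPM scale. MAPK8, which encodes the JNK1 kinase named for JUN, stood at 11.1 TPM on day 6 and 11.7 TPM on day 4 in the authors' deposited table and was not called (named after its values were seen).

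None of the 12 genes for factors that bind the FOS and JUN promoters was called by the Wald test in the authors' deposited table. Before adjustment, 1 of them was higher and 0 were lower at p under 0.05. This count depended on scaling, since SRF (log2 -0.41, adjusted p = 0.025) and MEF2A (log2 -0.41, adjusted p = 0.0186), named after their values were seen, were called lower by the Wald test on the TPM scale. Their levels lay between 10.1 and 32.4 TPM on day 6 and between 9.05 and 34.2 TPM on day 4. ELK1, which acts on the FOS promoter with serum response factor, had the smallest adjusted p of them (30.5 TPM on day 6, 24.9 TPM on day 4, log2 0.51 ± 0.25, adjusted p = 0.156 by the Wald test in the authors' deposited table). MEF2D, a factor on the JUN promoter, came next (26.6 TPM on day 6, 24.4 TPM on day 4, log2 0.35 ± 0.18, adjusted p = 0.19 by the Wald test in the authors' deposited table). Likewise 0 of the 6 genes for proteins that control turnover or activity of JUN proteins were called by the Wald test in the authors' deposited table. Across all 19485 tested entries 14.5% were called, so lists of 12 and 6 genes would hold few calls at that share. Before adjustment, 2138 of all tested entries were higher and 3414 lower at p under 0.05. Of the 6 turnover genes, 2 were higher and 0 lower before adjustment at p under 0.05: the ubiquitin ligase gene ITCH (log2 0.45 ± 0.18, adjusted p = 0.0662) and COPS5, a signalosome subunit that binds JUN (log2 0.61 ± 0.26, adjusted p = 0.098), both by the Wald test in the authors' deposited table. Both were called higher with mitochondrially encoded genes left out of TPM (adjusted p = 0.0129 and 0.0345 by the Wald test), and COP1, a ubiquitin ligase gene named after its values were seen, was called lower on the TPM scale (adjusted p = 0.0159).

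AU-rich elements are decay signals in messenger RNAs such as that of FOS. Genes for proteins that bind them were called in 2 of 8 cases, both lower on day 6. This share of 25% stood beside 14.5% of all tested entries. On the TPM scale 4 of the 8 were lower, beside 3829 of all 19485 tested entries. ZFP36, which destabilises such messengers, had 17.2 TPM on day 6 and 67.3 TPM on day 4 in the authors' deposited table (log2 -1.77 ± 0.33, adjusted p = 5.96e-06 by the Wald test). ZFP36L1, its relative, had 88.0 TPM on day 6 and 326 TPM on day 4 there (log2 -1.69 ± 0.43, adjusted p = 0.00199 by the Wald test in the authors' deposited table).

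Genes described in other cell types as AP-1 targets were lower in 8 and higher in 1 of 27 tested cases, with a median log2 fold change of -0.14. The share called was 33.3%, beside 14.5% of all entries, many of which are at low levels. This list was chosen with earlier results of these data known, and the difference between these shares was not tested. CD44, a receptor for hyaluronan, had 9.09 TPM on day 6 and 30.2 TPM on day 4 in the authors' deposited table (log2 -1.51 ± 0.26, adjusted p = 1.43e-06 by the Wald test). The cytokine gene IL6 stood at 0.201 TPM on day 6 and 2.26 TPM on day 4, and F3, the tissue factor gene, at 3.27 TPM on day 6 and 9.74 TPM on day 4, and both fell in the authors' deposited table. The one target called higher, MMP1, an interstitial collagenase named after its values were seen, stayed at a very low level, 0.411 TPM on day 6 and 0.0418 TPM on day 4 in the authors' deposited table. Other targets, such as VIM with 1897 TPM on day 6 and 2258 TPM on day 4 and VEGFA with 134 TPM on day 6 and 115 TPM on day 4, were not called in the authors' deposited table (both named after their values were seen).

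Immediate early genes outside the AP-1 family were called lower in 12 of 20 tested cases and higher in 0 (0 before adjustment as well), with a median of -0.78. The share called was 60%, beside 14.5% of all tested entries, a difference that was not tested. On the TPM scale 14 were lower, and with mitochondrially encoded genes left out of TPM 10. Against a fold of 1.5 only 3 were lower. Of all 19485 tested entries, 3829, 1595 and 553 were lower at these 3 settings. CCN1, a matricellular protein gene, had 27.1 TPM on day 6 and 337 TPM on day 4 in the authors' deposited table (log2 -3.44 ± 0.37, adjusted p = 1.76e-17 by the Wald test). EGR1, a zinc finger factor, had 41.4 TPM on day 6 and 268 TPM on day 4, and DUSP1, a MAP kinase phosphatase, 37.9 TPM on day 6 and 145 TPM on day 4, and both fell in the authors' deposited table. KLF6 fell less, with 22.3 TPM on day 6 and 43.5 TPM on day 4 (log2 -0.75 ± 0.15 in the authors' deposited table). GADD45B and IER3, named after their values were seen, were not called (log2 0.14 ± 0.35 and -0.29 ± 0.32 in the authors' deposited table).

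**Figure D4:**
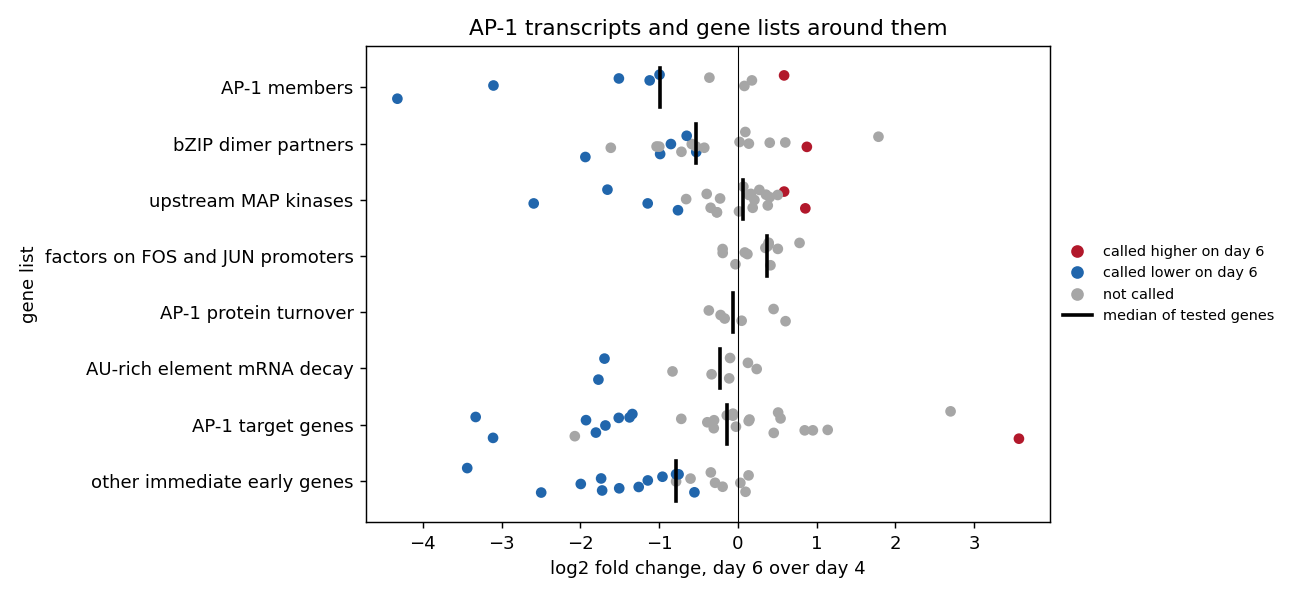
Log2 fold change (day 6 over day 4) of each tested gene in the AP-1 family and in 7 lists of related genes, coloured by call, with the median of each list as a bar. The medians of the AP-1 family (-0.99) and of the other immediate early genes (-0.78) lie lowest, and no factor on the FOS and JUN promoters is called on the scale drawn.

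Values that moved with these changes concern handling and cell types. HSPA1A, the inducible heat shock protein gene, had 39.1 TPM on day 6 and 292 TPM on day 4 in the authors' deposited table (log2 -2.69 ± 0.35, adjusted p = 7.93e-12 by the Wald test). HSP90AA1 was called higher (a call lost on the TPM scale), and 5 of the 7 heat shock genes were not called. Of these, HSPB1 (log2 -0.65 ± 0.24) and DNAJB1 (-0.26 ± 0.13) were lower before adjustment at p under 0.05. Both were called lower on the TPM scale (adjusted p = 0.00383 and 0.00237 by the Wald test). HSPA8, HSPH1 and BAG3 had positive Wald estimates (log2 0.51, 0.19 and 0.24). These uncalled genes were named after their values were seen. Summed over 6 markers each, pericyte and smooth muscle genes stood at 597 TPM on day 6 and 2200.3 TPM on day 4 (3 of 6 called lower), and macrophage genes at 30.1 TPM on day 6 and 66.2 TPM on day 4 (2 of 6 called lower), in the authors' deposited table. The 3 calls of the former list were the smooth muscle genes ACTA2, MYH11 and TAGLN. RGS5 (log2 0.05), PDGFRB (-0.46) and NOTCH3 (-0.45) were not called in the authors' deposited table (all 6 named after their values were seen). T and NK cell genes summed to 6.23 TPM on day 6 and 18.6 TPM on day 4 (3 of 6 called lower), and the 5 B and plasma cell genes to 3.72 TPM on day 6 and 82.9 TPM on day 4 (3 called lower), there. Endothelial markers summed to 196 TPM on day 6 and 262 TPM on day 4 (1 of 6 called lower), and fibroblast markers to 9954 TPM on day 6 and 11689.5 TPM on day 4 (2 of 6 called lower), there. The median log2 fold change was -0.15 for the endothelial and -0.02 for the fibroblast markers. Mitochondrially encoded genes held 29.2% of TPM on day 6 and 10.3% on day 4. All these TPM sums of other genes are therefore scaled down more on day 6. The 4 granulocyte markers (29.8 TPM on day 6, 17.0 TPM on day 4) had 1 call, higher, and the 4 epithelial markers (159.5 TPM on day 6, 164 TPM on day 4) had none by the authors' Wald test, with 1 lower and 0 higher before adjustment at p under 0.05. Of the 3 red blood cell markers, HBA, an alpha globin gene, held most of the sum, with 3.56 TPM on day 6 and 15.1 TPM on day 4 in the authors' deposited table, but like FOSB it has no usable p-value (log2 -1.99 ± 0.89). The other 2, HBB (log2 1.38 ± 0.95) and ALAS2 (log2 2.13 ± 1.62), were not called by the Wald test in the authors' deposited table, also before adjustment. Markers of steroidogenic luteal cells, which the label of the tissue implies, were all present, between 134 and 4624 TPM on day 6 and between 68.5 and 1995 TPM on day 4. They summed to 13352 TPM on day 6 and 5222 TPM on day 4 in the authors' deposited table, a ratio of 2.56, with 1 of 6 called higher, all 6 Wald estimates positive and a median log2 fold change of 1.53. No marker of any of these lists was at 0 on either day. The part of these cell types and of handling in the AP-1 values was not tested.

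When the Wald statistics were referred to a t distribution (5 degrees of freedom), 0 members were called, and 6 had an unadjusted p under 0.05, from 0.000707 for FOS to 0.0346 for JUND. Of all 19485 tested entries, likewise 0 were called with this distribution, and 3133 had an unadjusted p under 0.05. The loss of calls is thus not particular to the AP-1 genes.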

How the data were processed

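Per the labels, RNA of 7 libraries (day 6, n = 4; day 4, n = 3) was isolated with a miRCURY kit and sequenced as stranded single reads of 100 nt. FastQC, DESeq2 and the build ARS-UCD1.2 appear in the submitters' processing notes. The sources used here name no read counter or annotation and do not say whether counting used strand. The mean values per day deposited by the authors are in TPM, a unit read from sums of 999998 (day 6) and 999999 (day 4). The log2 fold change deposited by the authors is the log2 ratio of both means after adding 1. Per the file headers, a log2 standard error and a Wald statistic (a score) accompany it. In 19485 entries the deposited p-value is the normal p, two-sided, of this score (relative tolerance 0.001), and over these the deposited adjusted p-value follows from the Benjamini-Hochberg procedure. The other 54 entries have a deposited p-value of 1 and were left out of the tests.

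The fold change used here is score times standard error, and calls are the authors'. No model was refitted, since the table holds no values per library. Calculations used Python 3.11.15, pandas 2.3.3 and SciPy 1.17.1, and adjustment and calling were tested on simulated data. Members and the 19 gene lists (183 of 187 genes matched by symbol) were chosen with earlier results of these data known, and lists are described by counts and medians. Named are all members and, of each pathway, immediate early and heat shock list, up to 4 called genes with the smallest adjusted p, or the 2 smallest where fewer than 2 were called. Some of the genes this selects are not reported here. Alternatives were 2 rescalings (the TPM scale takes the median gap of 0.21 off each fold change), a t distribution, a minimum of 1 TPM, adjusted p under 0.01, a test against a fold of 1.5, other pseudocounts and, added after the data were seen, testing those of the 54 entries that have a statistic. No sequences or coordinates are shown.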

Additional observations from a re-analysis of the deposited data

How the results depend on the processing

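On the TPM scale 0 members were called higher (FOSL2 0.37, adjusted p = 0.0708) and 5 lower. Without the mitochondrially encoded genes, which held 29.2% of TPM on day 6 and 10.3% on day 4, fold changes gained 0.13 instead of losing 0.21, and 1 member was called higher and 4 lower (JUND -0.87, adjusted p = 0.0605). Over all entries 299 were called higher and 3829 lower on the TPM scale, against 1848 and 1595 without the mitochondrially encoded genes, and 803 and 2020 as reported. With the t distribution 0 members (1 and 5 as reported), 0 of all entries (3133 at an unadjusted p under 0.05) and 0 pathway list genes were called in either direction. The calls then lost were FOS (-4.32), JUN (-3.10), MAFF (-1.51), JUNB (-1.12), JUND (-0.99) and FOSL2 (0.59), with adjusted p from 0.245 to 0.287. Against a fold of 1.5, 0 members were called higher and 2 lower (FOS and JUN), so that FOSL2 (0.59), MAFF (-1.51), JUNB (-1.12) and JUND (-0.99) lost theirs, and 55 of all entries were called higher and 553 lower. At an adjusted p under 0.01 JUND (-0.99) lost its call, and 301 entries were called higher and 1142 lower. The pathway lists together had 4 genes called higher and 19 lower as reported, 2 and 31 on the TPM scale, 8 higher without the mitochondrially encoded genes, 1 higher at an adjusted p under 0.01, and 0 and 7 against a fold of 1.5. Tested on its Wald statistic, an alternative chosen after seeing the data, FOSB would be called (-3.99, adjusted p = 8.3e-05), making 6 members lower. As a log2 ratio of TPM plus 1, FOSB was -2.52 and FOSL2 0.36, and with 0.1 added FOSL2 was 0.37. No called member and no called gene of the lists could change sign on either rescaling, since each shift was smaller than their fold changes (ATF4 -0.53 the smallest). Uncalled genes near 0 did change sign, FOSL1 and BATF among them. No symbol was repeated, so no other entry could be chosen. No paired analysis was possible because the table holds means per day and no values per library, and for the same reason no library could be left out. Depth per library is unknown, so levels under 1 TPM, as of BATF and FOSB, have no known counting error.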

Other observations

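In the ARS-UCD2.0 annotation, used here for gene order only, JDP2 lies next to FOS and BATF next to JDP2. These 3 leucine zipper genes had unlike values in the authors' deposited table: FOS log2 -4.32 ± 0.58, JDP2 -0.99 ± 0.29 and BATF 0.18 ± 0.60, of which FOS and JDP2 were called lower. On the other side of FOS, the neighbours TMED10 (149 TPM on day 6, 154 TPM on day 4) and NEK9 (28.8 TPM on day 6, 29.5 TPM on day 4) were not called there (adjusted p = 0.415 and 0.259 by the authors' Wald test). Next to FOSL2, BABAM2, which encodes a subunit of a deubiquitinase complex of DNA repair, was also called higher in the authors' deposited table (71.7 TPM on day 6, 41.2 TPM on day 4, log2 1.03 ± 0.22, adjusted p = 0.000127 by the Wald test), while PLB1 on its other side was not (adjusted p = 0.126 by the same test). BATF3, near ATF3, had 9.58 TPM on day 6 and 7.61 TPM on day 4 in the authors' deposited table and was not called (adjusted p = 0.422 by the Wald test). Other neighbours called lower were HOOK2 near JUNB (log2 -1.06, adjusted p = 0.023), CTSW near FOSL1 (-2.67, 0.00233) and BAIAP2L2 near MAFF (-2.76, 0.0175), by the authors' Wald test. PGPEP1 near JUND was called higher (log2 0.40, adjusted p = 0.035 by the same test). The remaining neighbours examined were not called. All these neighbours were named after their values were seen.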
